A study of Mus musculus with 11 samples.

Results

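Transcripts of heat shock genes and of cold-inducible RNA-binding proteins were followed in the airway libraries of OVA/LPS mice given GGsTop. The 10 genes were picked by symbol, from the Ensembl identifiers of the expression table, as 8 targets of heat shock factor HSF1 (Hspa1a, Hspa1b, Hspa8, Hsph1, Hsp90aa1, Dnajb1, Hspb1 and Hspe1) and 2 cold-inducible RNA-binding proteins (Cirbp and Rbm3). All 10 were among the 21899 genes listed. All 10 also passed the filter on low values, a mean of at least 0.5 FPKM (fragments scaled to exon length and library depth) over the 11 libraries, which 14004 genes passed.

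All mice were WT male BALB/c mice a few weeks old. The PBS group (n = 3) was not sensitised and received PBS alone. The OVA/LPS/Vehicle group (n = 4) was sensitised by intraperitoneal ovalbumin (OVA) with alum, challenged with OVA and afterwards with lipopolysaccharide (LPS) through the nose, and given vehicle into the trachea. The OVA/LPS/GGsTop group (n = 4) had the same regime with GGsTop, an inhibitor of γ-glutamyl transferase, in place of vehicle. The labels call the tissue trachea, whereas the study's methods describe airway tissue freed from lung and frozen without the trachea. Nothing in the labels says that the libraries of a group came from separate animals, so p-values measure the spread between these libraries. The Vehicle libraries are numbered 12, 34, 56 and 78, and whether these are pools of mice is not stated. The hour of tissue collection is not given in the sources used here.

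When cells are heated or their proteins misfold, HSF1 binds heat shock elements, inverted repeats of nGAAn, and drives genes of chaperones. HSP70 proteins and their J-domain and HSP110 partners fold and release clients, HSP90 matures signalling proteins, and small heat shock proteins hold unfolded chains. Cirbp and Rbm3 respond to mild cooling and bind RNA. Both groups of transcripts are known to follow the daily cycle of body temperature in mouse tissues, in opposite phase.

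The libraries held 14513136 to 18632382 fragments, and the FPKM of each of the 10 genes corresponded to at least 150 fragments in every library. PBS library 3 stood apart. Its deviation from the gene means went up by 0.533 log2 per 10 points of transcript GC content, against 0.0484 to 0.0611 in the other PBS libraries. These slopes lay between −0.261 and −0.19 in the Vehicle group and between 0.0464 and 0.108 in the GGsTop group. Mitochondrially encoded genes held 2.08% of all FPKM in PBS 3 and up to 10.1% in the PBS group, 14.5% to 19.5% in the Vehicle group and 7.40% to 11.1% in the GGsTop group. All 8 airway epithelium markers were above 1 FPKM, with summed levels of 27501 to 38781 FPKM in PBS, 32933 to 50372 FPKM in Vehicle and 41221 to 48296 FPKM in GGsTop libraries. Changes are therefore given as deposited and, where it matters, after a GC correction and without PBS 3. In bulk tissue, fewer cells of a type and less RNA per cell cannot be told apart.

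RefSeq promoter entries (GRCm38.p6, 250 bases before to 50 after the start site) matched 7 of the 10 genes, with none for Hspa8, Hsp90aa1 and Rbm3. The 150 bases before the start of 5 heat shock genes are shown because they hold, or lack, the paired nGAAn units of a heat shock element. Capitals mark GAANNTTC or TTCNNGAA. The stretches lie at chr17:34972157-34972306 (Hspa1a, minus strand), chr17:34959239-34959388 (Hspa1b, minus strand), chr5:135887769-135887918 (Hspb1, plus strand), chr1:55087998-55088147 (Hspe1, plus strand) and chr8:83608025-83608174 (Dnajb1, plus strand).
Hspa1a: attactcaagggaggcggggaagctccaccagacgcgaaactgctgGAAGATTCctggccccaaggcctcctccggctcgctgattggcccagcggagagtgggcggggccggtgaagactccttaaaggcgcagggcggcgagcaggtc
Hspa1b: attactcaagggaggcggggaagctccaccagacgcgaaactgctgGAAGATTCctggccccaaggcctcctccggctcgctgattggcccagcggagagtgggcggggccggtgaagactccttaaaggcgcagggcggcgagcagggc
Hspb1: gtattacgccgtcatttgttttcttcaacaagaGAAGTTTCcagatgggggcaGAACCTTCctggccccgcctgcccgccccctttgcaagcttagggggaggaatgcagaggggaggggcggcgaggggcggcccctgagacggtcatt
Hspe1: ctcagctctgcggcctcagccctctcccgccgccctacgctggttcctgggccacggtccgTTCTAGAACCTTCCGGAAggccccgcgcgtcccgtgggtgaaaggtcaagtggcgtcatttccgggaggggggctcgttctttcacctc
Dnajb1: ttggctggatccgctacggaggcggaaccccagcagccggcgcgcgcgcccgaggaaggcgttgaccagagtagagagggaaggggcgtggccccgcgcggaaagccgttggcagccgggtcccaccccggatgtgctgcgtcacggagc

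Each motif was searched on both strands of the 300-base windows. GAANNTTC began at −104 in Hspa1a and Hspa1b, at −117 and −97 in Hspb1, at −84 in Hspe1 and at 42 in Hsph1, counted from the first listed start site, and 7.86% of 32851 mouse promoter windows hold it. TTCNNGAA began at −89 and −79 in Hspe1 and at −33 and 37 in Hsph1, against 8.52% of windows. The longer GAANNTTCNNGAA, which contains both shorter words, was found in Hspe1 and Hsph1 and in 0.603% of windows. None of these words was in the windows of Dnajb1 or Cirbp. The windows of Hspa1a and Hspa1b were identical at 296 of 300 bases. The circadian E-box CACGTG was in the window of Hsph1 alone among the 7 genes (7.15% of windows), and TCCCCGCC, a proposed mild-cold element, was in those of Hspa1a, Hspa1b, Cirbp and the later listed start of Dnajb1 (5.38% of windows). A match of letters is not a bound site.

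Of the 8 heat shock genes, 4 were higher in the Vehicle group than in PBS (Hsp90aa1, Hsph1, Hspa8 and Hspe1) and none was lower, while 15.9% of all genes tested were called higher there and 22.1% lower. In the GGsTop group 5 were higher than in PBS (Hsph1, Dnajb1, Hspa1a, Hspa1b and Hspa8) and none lower, where 2.06% of all genes were called higher and 0.821% lower. Between GGsTop and Vehicle 1 was called, Hspb1, higher with GGsTop, where 6.9% of all genes were called higher and 1.81% lower. Cirbp was lower in the Vehicle group than in PBS, and neither Cirbp nor Rbm3 was called otherwise. The median log2 fold change of the 8 heat shock genes was 1.13 for Vehicle against PBS, 1.22 for GGsTop against PBS and 0.71 for GGsTop against Vehicle, with medians over all genes tested of −0.01, 0.01 and 0.03. Without PBS 3 the medians against PBS were 0.70 for Vehicle and 0.98 for GGsTop. A call is a limma test on log2(FPKM + 1) with its p, adjusted over the 14004 genes, under 0.05. Fold changes on this scale understate those of low genes. The 3 comparisons share libraries and are not independent.

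**Figure D1:**
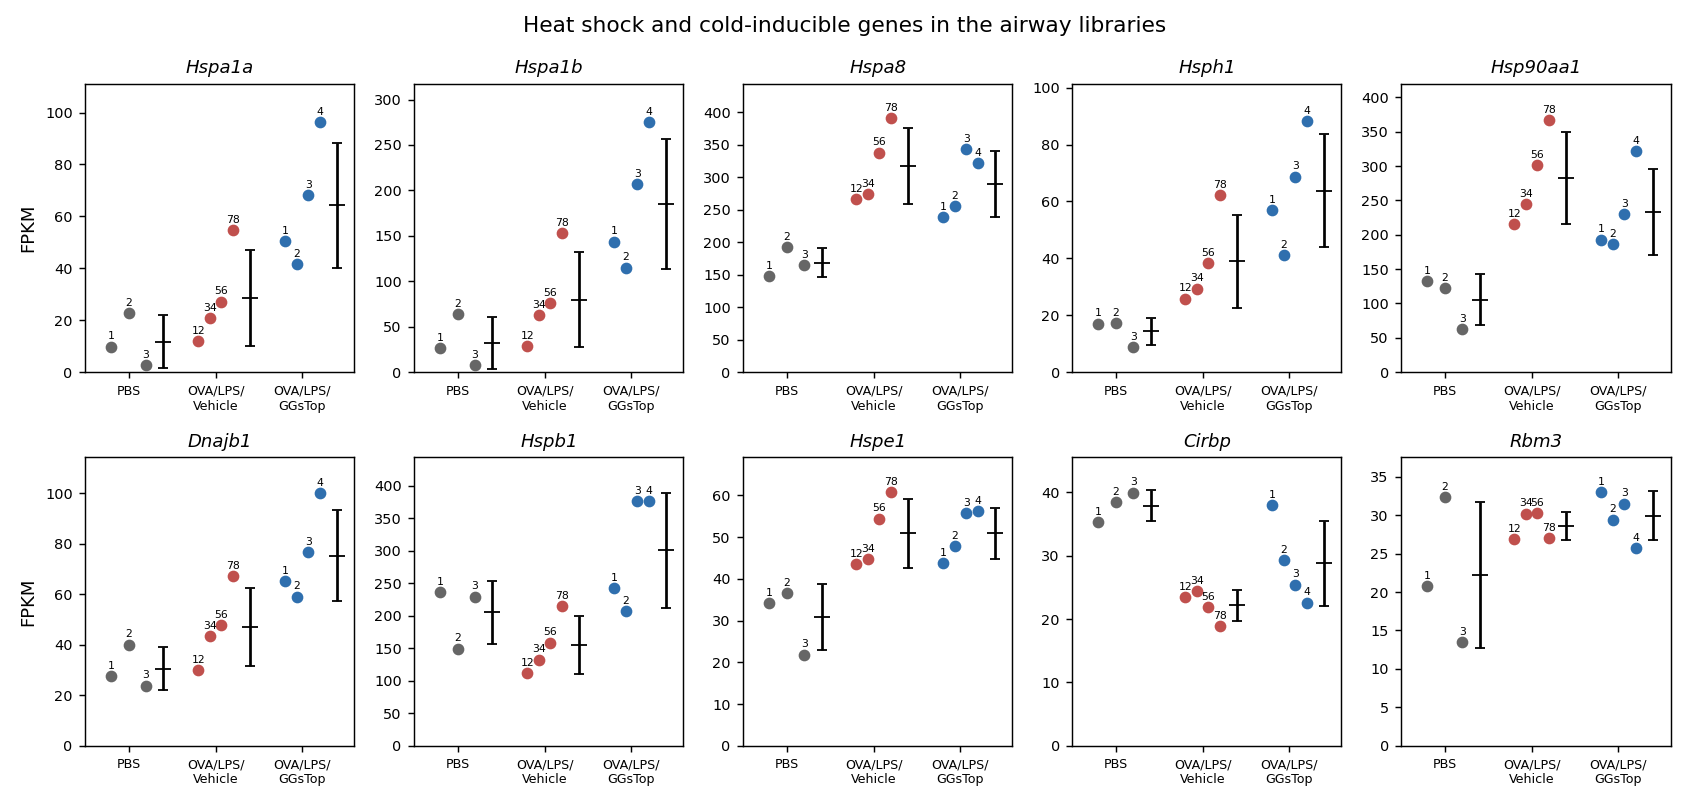
FPKM (y axis, from 0, own scale for each gene) of the 10 genes in the 11 libraries. Points are libraries with their numbers, and bars are the group mean ± SD (n = 3, 4 and 4). PBS 3 had the lowest level of 6 of the 8 heat shock genes in its group, against 44.1% of all genes tested. Vehicle 78 had the highest of all 8 in its group, against 17.9% of all genes tested.

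Hspa1a and Hspa1b encode the stress-inducible HSP70 and lie side by side on chromosome 17 (chr17:34969190-34972156 and chr17:34956436-34959238, minus strand, GRCm38). Hspa1b stood at 25.9, 63.8 and 7.47 FPKM in PBS 1, 2 and 3, at 28.2, 62.4, 75.7 and 153 FPKM in Vehicle 12, 34, 56 and 78, and at 143, 115, 207 and 275 FPKM in GGsTop 1, 2, 3 and 4. Hspa1a stood at 9.76, 22.8 and 2.71 FPKM in PBS, at 11.9, 20.8, 27.2 and 54.7 FPKM in Vehicle and at 50.6, 41.7, 68.3 and 96.3 FPKM in GGsTop libraries, in the same order. All 4 GGsTop libraries lay above all PBS libraries, while the Vehicle libraries overlapped both other groups. Against PBS, Hspa1b was higher by 2.84 log2 with GGsTop (SE 0.65, adjusted p = 0.0438) and Hspa1a by 2.66 log2 (SE 0.59, adjusted p = 0.0393). Both calls were lost with the replicate number, which PBS and GGsTop libraries share, as a block (adjusted p = 0.0889 and 0.0841). That fit held only PBS and GGsTop libraries 1 to 3, so it also left out GGsTop 4. Leaving out GGsTop 4 alone, without a block, lost both calls as well (adjusted p = 0.0978 and 0.0906). So did leaving out PBS 3 (2.08 and 1.95 log2, adjusted p = 0.149 and 0.139). Against Vehicle the differences were 1.37 log2 (SE 0.60, adjusted p = 0.151) for Hspa1b and 1.27 log2 (SE 0.55, adjusted p = 0.144) for Hspa1a, and neither passed the test. The Vehicle group was 1.48 log2 (SE 0.65, adjusted p = 0.0918) and 1.39 log2 (SE 0.59, adjusted p = 0.0825) above PBS, and 0.71 and 0.69 log2 above it without PBS 3. The ratio of Hspa1a to Hspa1b stayed between 0.330 and 0.422 in all 11 libraries. The coding sequences are near-identical copies, so how reads were split between them is uncertain, and their sum ranged from 10.2 to 86.6 FPKM in PBS, 40.1 to 208 FPKM in Vehicle and 157 to 371 FPKM in GGsTop libraries.

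Hspa8 encodes the constitutive HSC70, which folds proteins in unstressed cells (chr9:40800984-40810087, plus strand). It stood at 148, 193 and 164 FPKM in PBS, at 266, 274, 338 and 391 FPKM in Vehicle and at 238, 256, 343 and 321 FPKM in GGsTop libraries. Every library of both OVA/LPS groups lay above every PBS library, and the OVA/LPS groups overlapped. The Vehicle group was 0.90 log2 above PBS (SE 0.18, adjusted p = 0.0059), a 1.87-fold difference, and the GGsTop group 0.77 log2 (SE 0.18, adjusted p = 0.0472). The GGsTop call was lost with the replicate block (adjusted p = 0.0924) and without PBS 3 (adjusted p = 0.136). GGsTop and Vehicle differed by −0.13 log2 (SE 0.17, adjusted p = 0.623). Snord14 snoRNA genes overlap its annotated exons on the same strand and were not analysed here.

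Hsph1, the HSP110 nucleotide exchange factor that resets HSP70, had the smallest adjusted p of the 10 genes for GGsTop against PBS (chr5:149614287-149636376, minus strand). Its level was 17.0, 17.2 and 8.72 FPKM in PBS, 25.8, 29.3, 38.2 and 62.3 FPKM in Vehicle and 57.0, 41.0, 68.7 and 88.2 FPKM in GGsTop libraries. No library of either OVA/LPS group reached down to the PBS range, and Vehicle 78 lay within the GGsTop range. Hsph1 rose by 1.36 log2 in the Vehicle group (SE 0.33, adjusted p = 0.0115) and by 2.08 log2 in the GGsTop group (SE 0.33, adjusted p = 0.0144), 2.56-fold and 4.24-fold. The group means were 14.3 ± 4.85 FPKM (SD, n = 3), 38.9 ± 16.4 FPKM (SD, n = 4) and 63.7 ± 19.9 FPKM (SD, n = 4). GGsTop against Vehicle gave 0.73 log2 (SE 0.31, adjusted p = 0.139). Without PBS 3 the Vehicle difference was 1.06 log2 and no longer passed (adjusted p = 0.0563). The GGsTop difference was then 1.78 log2 (adjusted p = 0.0617), and 1.91 log2 with the replicate block (adjusted p = 0.0505), and neither passed.

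Dnajb1 encodes HSP40, the J-domain partner that hands clients to HSP70 (chr8:83608193-83612653, plus strand). It stood at 27.6, 40.0 and 23.8 FPKM in PBS, at 29.9, 43.3, 47.6 and 67.0 FPKM in Vehicle and at 65.2, 59.0, 76.6 and 99.8 FPKM in GGsTop libraries. The GGsTop libraries were all above PBS, and all but Vehicle 78 of the Vehicle libraries lay below all of them. Against PBS, Dnajb1 rose with GGsTop by 1.28 log2 (SE 0.27, adjusted p = 0.0302), a call lost with the replicate block (adjusted p = 0.0603) and without PBS 3 (adjusted p = 0.131). The difference was 0.58 log2 (SE 0.27, adjusted p = 0.0993) for Vehicle against PBS and 0.70 log2 (SE 0.25, adjusted p = 0.0894) for GGsTop against Vehicle.

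Hsp90aa1, the inducible HSP90 isoform, had its highest group mean with Vehicle (chr12:110690605-110702728, minus strand). It stood at 133, 122 and 62.4 FPKM in PBS, at 216, 245, 302 and 367 FPKM in Vehicle and at 193, 186, 229.9 and 322 FPKM in GGsTop libraries. All OVA/LPS libraries lay above all PBS libraries. It rose by 1.45 log2 in the Vehicle group (SE 0.28, adjusted p = 0.0054) and stood 1.17 log2 above PBS in the GGsTop group (SE 0.28, adjusted p = 0.0526). After GC correction the difference between GGsTop and PBS was 1.08 log2 and passed (adjusted p = 0.0388). GGsTop lay 0.28 log2 under Vehicle (−0.28, SE 0.26, adjusted p = 0.484).

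Hspe1 encodes HSP10, the mitochondrial co-chaperonin that caps HSP60 (chr1:55088132-55091307, plus strand). Its exons overlap those of Hspd1, the HSP60 gene, on the other strand, and strand use in counting is not given, so reads of the pair cannot be told apart there. It stood at 34.1, 36.5 and 21.8 FPKM in PBS, at 43.5, 44.6, 54.4 and 60.9 FPKM in Vehicle and at 43.7, 47.8, 55.8 and 56.3 FPKM in GGsTop libraries. The OVA/LPS libraries were all above the PBS libraries, and the OVA/LPS groups had the same mean of 50.9 FPKM (SD 8.28 and 6.15, n = 4 each). Hspe1 was higher in the Vehicle group than in PBS by 0.72 log2 (SE 0.18, adjusted p = 0.0128). With GGsTop it was 0.73 log2 above PBS (SE 0.18, adjusted p = 0.0564), and 0.67 log2 after GC correction (adjusted p = 0.0404). That difference did not pass without PBS 3 (0.51 log2, adjusted p = 0.160) or with the replicate block (0.68 log2, adjusted p = 0.166). The difference between GGsTop and Vehicle was 0.01 log2 (SE 0.17, adjusted p = 0.983), and its sign changed with the scaling of the libraries. Hspd1 rose by 1.08 log2 in the Vehicle group (SE 0.24, adjusted p = 0.0082).

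Hspb1 encodes HSP27, a small heat shock protein that holds unfolded chains and binds actin (chr5:135887919-135889563, plus strand). It was the only heat shock gene of the 8 with a lower mean in the Vehicle group than in PBS, and the only one called between GGsTop and Vehicle. It stood at 237, 149 and 229 FPKM in PBS, at 112, 132, 159 and 215 FPKM in Vehicle and at 243, 207, 377 and 376 FPKM in GGsTop libraries. Vehicle 78 lay above GGsTop 2, so the groups overlapped. The difference between GGsTop and Vehicle was 0.95 log2 (SE 0.26, adjusted p = 0.0440), 1.93-fold. Its transcript has 61.7% GC, the highest of the 10 genes, against a median of 49.9% over the genes tested, and after GC correction the difference was 0.67 log2 (SE 0.25, adjusted p = 0.144). The call was also lost without any 1 of the OVA/LPS libraries and without PBS 1 (adjusted p up to 0.108). Against PBS, Hspb1 differed by −0.42 log2 in the Vehicle group (SE 0.28, adjusted p = 0.240) and by 0.53 log2 in the GGsTop group (SE 0.28, adjusted p = 0.302).

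**Figure D2:**
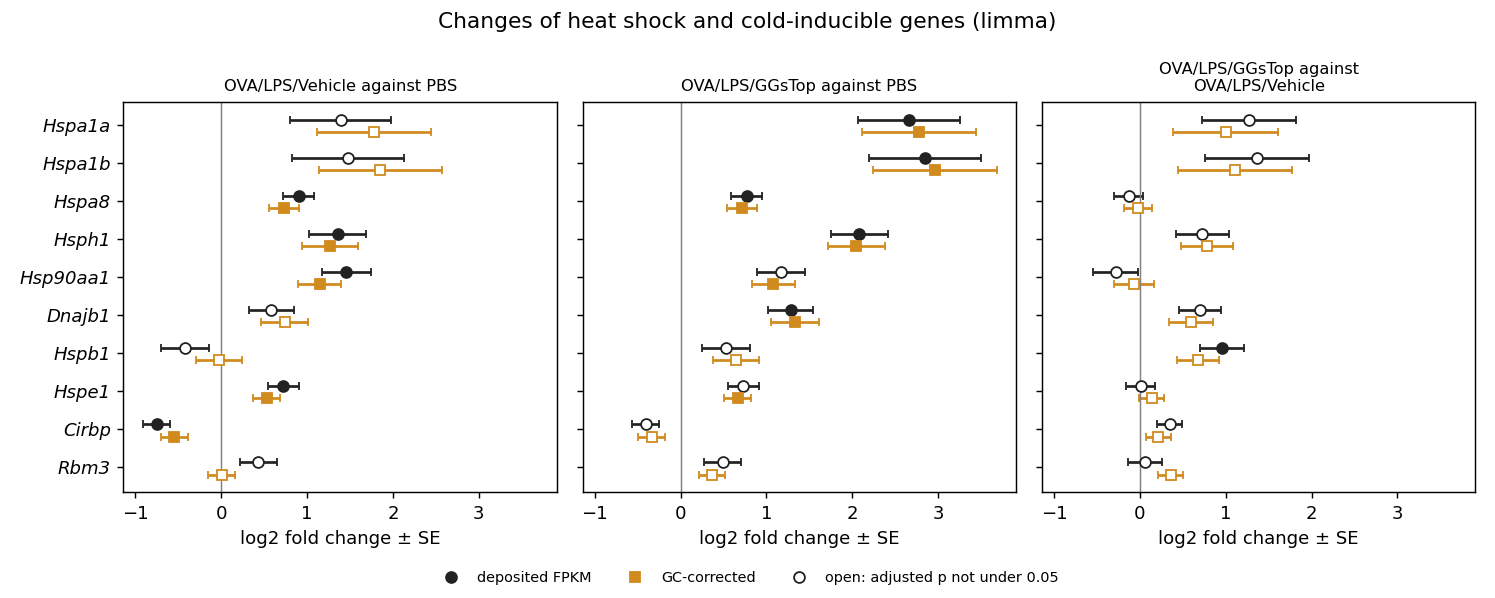
log2 fold change ± SE (x axis) of the 10 genes (y axis) in the 3 comparisons, from deposited FPKM (circles) and after GC correction (squares). Filled marks have an adjusted p under 0.05. Hspb1 is the 1 filled circle for GGsTop against Vehicle and is open after correction.

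Cirbp (chr10:80165985-80172786, plus strand), whose protein binds stress and clock transcripts after mild cooling, was lower in the Vehicle group than in PBS, while 4 heat shock genes were higher there. It stood at 35.3, 38.5 and 40.0 FPKM in PBS, at 23.5, 24.4, 21.8 and 18.9 FPKM in Vehicle and at 38.0, 29.3, 25.5 and 22.6 FPKM in GGsTop libraries. Every Vehicle library lay below every PBS library, and the GGsTop libraries spanned both groups. Cirbp fell by 0.75 log2 in the Vehicle group (SE 0.16, adjusted p = 0.0066), by 0.55 log2 after GC correction (adjusted p = 0.0329), and was lower than every PBS library in 4 of 4 Vehicle libraries. In the GGsTop group it differed from PBS by −0.41 log2 (SE 0.16, adjusted p = 0.179) and from Vehicle by 0.35 log2 (SE 0.15, adjusted p = 0.137).

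Rbm3 encodes the other glycine-rich RNA-binding protein of the cooling response (chrX:8138975-8145880, minus strand). It stood at 20.8, 32.4 and 13.5 FPKM in PBS, at 26.9, 30.2, 30.2 and 27.1 FPKM in Vehicle and at 33.0, 29.4, 31.5 and 25.7 FPKM in GGsTop libraries. The 3 PBS libraries spread more widely than the other 8 together. The Vehicle group was 0.43 log2 above PBS (SE 0.22, adjusted p = 0.134), the GGsTop group 0.49 log2 (SE 0.22, adjusted p = 0.232) and GGsTop 0.06 log2 above Vehicle (SE 0.20, adjusted p = 0.869). Its transcript has the lowest GC content of the 10, 41.5%, and after GC correction the difference between Vehicle and PBS was 0.01 log2 and that between GGsTop and Vehicle 0.36 log2 (SE 0.14, adjusted p = 0.170). Without PBS 3 the Vehicle group was 0.13 log2 and the GGsTop group 0.19 log2 above PBS. The ratio of Cirbp to Rbm3 was 1.70, 1.19 and 2.95 in PBS and between 0.699 and 1.15 in all 8 OVA/LPS libraries. An antisense gene, Rbm3os, overlaps Rbm3 and was not analysed here.

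The calls against PBS differed in how much they rested on PBS 3. All 5 genes called for Vehicle against PBS kept their call after GC correction, and all but Hsph1 kept it without PBS 3. Over all genes tested 3007 and 3064 were called in those fits, against 5327 in the main fit. For GGsTop against PBS, the GC correction gave 7 calls, all 8 heat shock genes but Hspb1, where 609 of all genes were called. Without PBS 3 limma called none of the 10, where 56 of all genes were called, against 403 in the main fit. In that fit without PBS 3, 7 of the 10 had an unadjusted p under 0.05. None was called either without PBS 1 or without GGsTop 1, where Hsph1 was at an adjusted p of 0.0543 and 0.0516 and 8 genes had an unadjusted p under 0.05. Only 29 and 36 of all 14004 genes were called in those fits. Without Vehicle 34, Vehicle 56, GGsTop 2 or GGsTop 4, Hsph1 alone was called, where 245, 212, 143 and 200 of all genes were. Without GGsTop 3 there were 3 calls, where 777 of all genes were called. Without PBS 2, the PBS library with the highest Hspa1a and Hspa1b, 8 genes were called for GGsTop against PBS and 9 for Vehicle against PBS, where leaving out Vehicle 12 gave 8. Over all 14004 genes tested, 403 were called for GGsTop against PBS and 5327 for Vehicle against PBS. Without PBS 2 these were 1597 and 6440, and without Vehicle 12 the latter was 4634. PBS and GGsTop libraries share the numbers 1 to 3. A fit of these libraries alone, without GGsTop 4, took the number as a replicate block. There limma called none of the 10 for GGsTop against PBS, with 9 at an unadjusted p under 0.05, and 62 of all genes. With the block and the GC correction together Hsph1 alone was called (adjusted p = 0.0339), where 417 of all genes were. In 7 of the 8 heat shock genes every GGsTop library lay above every PBS library, which held for 7.22% of all genes tested. For each of them an exact two-sided permutation test of 4 against 3 libraries gave 0.0571, the smallest p this design allows. In the same way, 4 of the 8 heat shock genes had every Vehicle library above every PBS library (18.7% of all genes), Cirbp had every Vehicle library below (25.4%), and none of the 10 had every GGsTop library below PBS (7.54%). No gene of the 10 had GGsTop and Vehicle libraries without overlap, which 17.3% of all genes had with GGsTop higher and 12.4% with GGsTop lower.

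The heat shock genes also differed between libraries of the same group. Their pooled within-group SD on the log2 scale was 1.01 for Hspa1b, 0.92 for Hspa1a and 0.51 for Hsph1, larger than in 99.0%, 98.7% and 95.3% of the genes tested, whose median was 0.20. Hspa8 (0.24), Hspe1 (0.26) and Cirbp (0.22) were nearer to that median. Vehicle 78 was the highest Vehicle library for 8 of 8 heat shock genes, against 17.9% of all genes tested, and Vehicle 12 was the lowest for 8 of 8, against 25.8%. Among GGsTop libraries, GGsTop 4 was the highest for 6 of 8 (31.8% of all genes) and GGsTop 2 the lowest for 6 of 8 (18.0% of all genes). Vehicle 78 and GGsTop 4, with the most heat shock transcripts, were also the libraries with the least Cirbp in their groups. In PBS, PBS 1 had the least Cirbp. The 8 genes summed to 632 FPKM in PBS 1 and 644 FPKM in PBS 2, but took 0.209% and 0.204% of all FPKM there. Which PBS library had the most heat shock transcripts thus depended on the measure. The 8 genes together took 0.163% to 0.209% of all FPKM in PBS, 0.214% to 0.384% in Vehicle and 0.284% to 0.487% in GGsTop libraries. Vehicle 78 at 1370 FPKM in sum was thus above GGsTop 1 and 2, at 1034 and 954 FPKM.

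**Figure D3:**
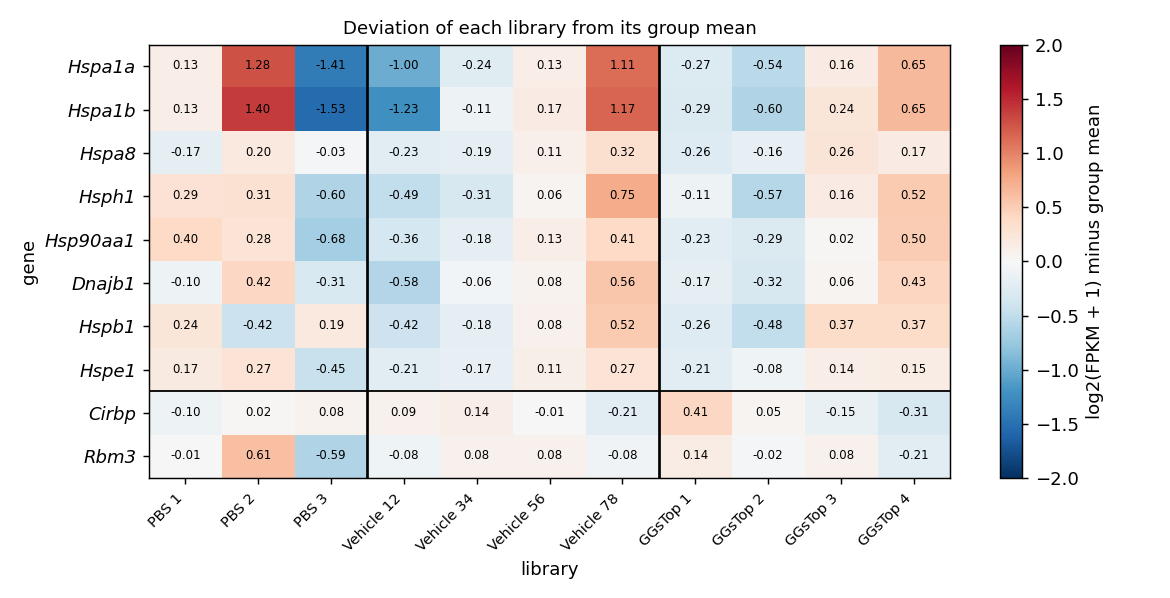
Deviation of each library (x axis) from its group mean in log2(FPKM + 1) for the 10 genes (y axis), coloured from blue (below) to red (above). Vehicle 12 is below its group mean and Vehicle 78 above it in all 8 heat shock genes, while Cirbp is below its mean in Vehicle 78 and GGsTop 4.

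Of 60 further chaperone genes in 8 lists, 59 were tested. For Vehicle against PBS 21 were higher and 8 lower, 35.6% and 13.6% of those tested against the 15.9% and 22.1% of all genes given above. For GGsTop against PBS 6 were higher and none lower, 10.2% of those tested against the 2.06% of all genes higher and 0.821% lower. For GGsTop against Vehicle 4 were higher and none lower, and their 6.78% was close to the 6.9% of all genes, of which 1.81% were lower. After GC correction these counts were 11 higher and 3 lower, 9 higher, and 1 higher. Without PBS 3 they were 14 higher and 4 lower for Vehicle against PBS, 0 by limma for GGsTop against PBS, where 18 had an unadjusted p under 0.05, and 7 higher and 1 lower for GGsTop against Vehicle. Over all 14004 genes the GC correction gave, in the same order, 1138 higher and 1869 lower, 421 and 188, and 251 and 60. Leaving out PBS 3 gave 1175 and 1889, 39 and 17, and 2144 and 1447. The lists were chosen with results of these libraries known.

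In the list of HSP90 and its cochaperones 6 of 10 genes were higher for Vehicle against PBS and 1 was lower, or 4 and 1 after GC correction. Chordc1, a zinc-binding HSP90 partner, rose by 1.46 log2 (SE 0.28, adjusted p = 0.0050), Cacybp by 1.32 log2 (SE 0.29, adjusted p = 0.0075) and Ptges3, the p23 cochaperone, by 1.04 log2 (SE 0.18, adjusted p = 0.0040). Of 9 J-domain genes, 5 were higher and 1 lower, or 3 and 0 after GC correction and 3 and 1 without PBS 3, among them Dnaja1, which rose by 1.27 log2 (SE 0.30, adjusted p = 0.0102). Hspa4l, an HSP110 relative of Hsph1, and Hspa2, an HSP70, rose by 1.30 and 0.97 log2 (adjusted p = 0.0037 and 0.0065), and these were the 2 of 6 HSP70 and HSP110 genes called. Of 8 subunits of the cytosolic chaperonin TRiC 4 were higher, with Cct6a at 0.61 log2 (adjusted p = 0.0070), and Cct6a alone was called after GC correction (adjusted p = 0.0136). Of 6 mitochondrial chaperones Hspd1 and Hspa9 were higher, and Hspd1 alone was called after GC correction or without PBS 3. Hsf1, the gene of the heat shock factor itself, fell by 0.66 log2 (SE 0.16, adjusted p = 0.0109), from 10.5 ± 3.03 (SD, n = 3) to 6.10 ± 0.501 FPKM (SD, n = 4). Hsf4 and Serpinh1, a collagen chaperone, fell too and Hsf2 rose, and of these Hsf1 alone kept its call after GC correction or without PBS 3. Of 10 BAG factors and ubiquitin partners 3 were lower, with Bag6 at −0.71 log2 (adjusted p = 0.0037) and the ubiquitin ligase Stub1 at −0.63 log2 (adjusted p = 0.0045), and 1 was higher. These counts were 1 lower and none higher after GC correction, and 2 and none without PBS 3.

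For GGsTop against PBS, Dnaja1 (1.39 log2, adjusted p = 0.0359), Hspa2 (1.19 log2, adjusted p = 0.0160), Chordc1 (1.18 log2, adjusted p = 0.0474), Hspa4l (1.15 log2, adjusted p = 0.020), Dnaja4 (1.12 log2, adjusted p = 0.0258) and Stip1 (0.90 log2, adjusted p = 0.0359) were higher. None of them was called without PBS 3 (adjusted p of 0.0517 for Hspa2 and more for the others) or with the replicate block (0.0551 for Dnaja4 and more for the others). For GGsTop against Vehicle, Dnajb5 was higher by 0.59 log2 (SE 0.08, adjusted p = 0.0106) and kept its call after GC correction (adjusted p = 0.0401). Stub1 (0.52 log2, adjusted p = 0.0224) and Bag6 (0.46 log2, adjusted p = 0.0305) were higher and lost theirs (adjusted p = 0.0934 and 0.165). None of the 5 small heat shock genes other than Hspb1 was called by limma in any of the 3 comparisons, where 1, 2 and 0 of them had an unadjusted p under 0.05 for Vehicle against PBS, GGsTop against PBS and GGsTop against Vehicle. Their log2 fold changes were positive in 4 of the 5 in each comparison, with medians of 0.45, 0.39 and 0.22 in the same order. Cryab, with a lower mean in Vehicle than in PBS, stood at 139 ± 23.9 (SD, n = 3), 110 ± 13.7 (SD, n = 4) and 128 ± 12.3 FPKM (SD, n = 4) in PBS, Vehicle and GGsTop.

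**Figure D4:**
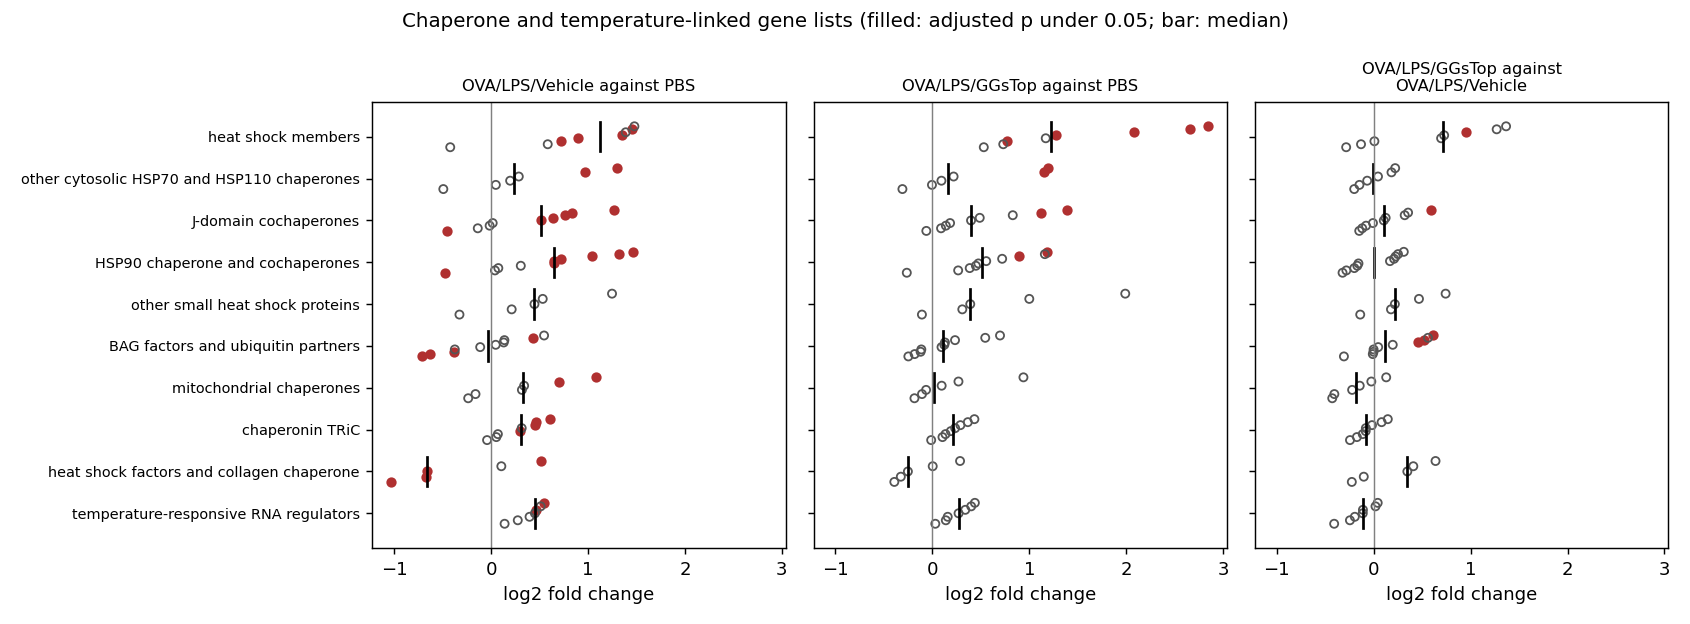
log2 fold change (x axis) of the members and of other chaperone and temperature-linked genes by list (y axis) in the 3 comparisons. Points are genes, filled where the adjusted p was under 0.05, and vertical bars are list medians. The heat shock genes have medians of 1.13, 1.22 and 0.71 (0.70 and 0.98 against PBS without PBS 3), and the lists of further chaperones lie nearer to 0 for GGsTop against Vehicle.

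The genes whose levels over the 11 libraries were most like those of Hsph1, by Pearson correlation of log2(FPKM + 1) across 3 groups, were Stip1 (r = 0.969), Ccdc117 (r = 0.964) and Ahsa2 (r = 0.952). Stip1 encodes the adaptor that joins HSP70 to HSP90. For Cirbp they were Magix (r = 0.954), Plekhm3 (r = 0.948) and Mesp2 (r = 0.940), and for Rbm3 Gm2000 (r = 0.954), Pygo1 (r = 0.951) and Ate1 (r = 0.937). These values describe 11 libraries that share their groups, GC slopes and dissections.

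Summed levels of other transcripts differed between some of the groups and overlapped between others. Immediate early genes, 12 transcripts that respond quickly to handling and stress, summed to 664 to 805 FPKM in PBS, 360 to 474 FPKM in Vehicle and 422 to 516 FPKM in GGsTop libraries. The 5 alveolar markers summed to 10146 to 16222 FPKM in PBS, 5183 to 8579 FPKM in Vehicle and 4583 to 11862 FPKM in GGsTop libraries. The 5 adipocyte markers summed to 15.5 to 125 FPKM in PBS, 126 to 511 FPKM in Vehicle and 9.28 to 112 FPKM in GGsTop libraries, and the 4 thyroid markers to 92.4, 175 and 314 FPKM in Vehicle 12, 34 and 56 and to at most 1.68 FPKM in the other 8 libraries. Cardiac markers overlapped between groups (95.3 to 1726, 838 to 1348 and 557 to 2350 FPKM), as did those of leukocytes, thymocytes, cartilage and skeletal muscle, while smooth muscle markers were at 519 to 702 FPKM in PBS, 439 to 475 FPKM in Vehicle and 417 to 1038 FPKM in GGsTop libraries. No marker was at 0 in every library. The part of these transcripts, of the mitochondrial share and of the GC slopes in the changes of the heat shock and cold-inducible genes was not tested.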

How the data were processed

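Total RNA was poly-A selected and sequenced, and the deposited table holds FPKM values that the authors made per gene and library. Their processing notes name cutadapt 1.15, HISAT2 2.0.5, HTSeq 0.9.1 and the mm39 build. The count of value columns matching no sample was 0.

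Symbols, exon lengths, GC content and gene coordinates came from GENCODE M21 (GRCm38), which matched 21846 of 21899 genes, so coordinates are not in the authors' build. FPKM times exon length gave whole fragments (within 0.02) in every library for 97.79% of genes.

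limma 3.58.1 (R 4.3.3, trend) was fitted to log2(FPKM + 1) of all 11 libraries together, keeping the 14004 genes that averaged 0.5 FPKM or more, two-sided, with Benjamini-Hochberg adjustment over them. The GC correction subtracted, in each library, a natural spline (5 df) of deviations from the gene means. Exact tests permuted libraries. The scripts were tested on simulated data. Same-numbered PBS and GGsTop libraries deviated together from their group means (r = 0.367, 0.427 and 0.428 for numbers 1, 2 and 3), while the 6 pairs of unlike numbers had r from −0.693 to 0.457, the highest being PBS 1 with GGsTop 3. Values with the number as a block are given beside the calls it changes, although the labels do not say what the numbers share. The block fit held only libraries 1 to 3 of PBS and GGsTop. The part of the block itself in these changes was not tested.

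Named were the 10 genes, the 3 genes of each list with the smallest p in each comparison, Per2, Nr1d1 and Dbp, and the 3 genes most like Hsph1, Cirbp and Rbm3. Of these, 1 gene is not reported here. Genes and lists were chosen with earlier results of these data known. Alternatives were another pseudocount, filter, scaling, weighting, library set and model.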

Additional observations from a re-analysis of the deposited data

Results flagged for a closer look

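Among 75 named genes, 150 checks asked whether 1 library stood far from the other 3 of its OVA/LPS group, and chance flags about 1 in 20 such checks. They marked 7 values, none of them of the 8 heat shock genes, Cirbp or Rbm3. Hspa2, an HSP70, was at 22.9 FPKM in Vehicle 78 against 20.2 to 20.5 in the other Vehicle libraries. GGsTop 4 held 3 of the values: Hspa4l, an HSP110 relative, at 23.2 FPKM against 13.5 to 14.4 in the other GGsTop libraries, Dnaja4, a J-domain cochaperone, at 36.0 FPKM against 18.9 to 20.1, and Bag4 at 1.60 FPKM against 1.37 to 1.40. Vehicle 34 held 2, Hspb7 at 16.6 FPKM against 22.8 to 23.5 and Hsf2 at 4.16 FPKM against 3.47 to 3.58. Clk1, a kinase whose activity responds to temperature, was at 49.4 FPKM in Vehicle 12 against 57.2 to 58.6. GGsTop 4 and Vehicle 78 were also the libraries with the highest levels of 6 and 8 of the 8 heat shock genes in their groups.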

How the results depend on the processing

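Of 620 values of the 10 genes under the alternatives, 526 kept their direction and their side of the threshold, 66 lost and 21 gained a call, and 7 changed sign, all 7 being Hspe1 for GGsTop against Vehicle. Hspe1 then stood at −0.11 log2 with array weights, −0.014 with equal FPKM totals, −0.042 with equal medians and between −0.062 and 0.097 log2 with a library left out. The number of the 10 genes called for GGsTop against Vehicle (1) was 0 with the GC correction, with no minimum level and with equal medians, 2 with array weights and 0 to 1 with a library left out. At an unadjusted p under 0.05 there were 4, 4 and 5 genes in the first 3 of these. For Vehicle against PBS (5) it was 9 with array weights and 4 to 9 with a library left out. For GGsTop against PBS (5) it was 8 with array weights, 1 with no minimum level, 1 with only the compared groups, 0 with the replicate block, 1 with the replicate block and the GC correction, and 0 to 8 with a library left out. Over all genes, GGsTop against Vehicle gave 254 lower and 966 higher, but 354 and 344 with equal medians and 60 and 251 with the GC correction. With no minimum level it gave 184 and 712 of 18272 genes. It gave 1406 and 2119 with only the compared groups, 1982 and 3232 with array weights, and 24 to 3591 in all with a library left out. Vehicle against PBS gave 3096 lower and 2231 higher, but 1869 and 1138 with the GC correction, 1889 and 1175 without PBS 3, and 4473 and 3443 with array weights. With a library left out it gave 3064 to 6440 in all. GGsTop against PBS gave 115 and 288, but 188 and 421 with the GC correction and 9 and 30 with only the compared groups. It gave 61 and 147 with no minimum level and 1178 and 1379 with array weights. With the block it gave 16 and 46, and with the block and the GC correction 118 and 299. With a library left out it gave 29 to 1597 in all. limma voom on the recovered fragments gave 5382, 1109 and 323 genes for Vehicle against PBS, GGsTop against Vehicle and GGsTop against PBS and called the same 5, 1 and 5 of the 10. Why the counts moved was not tested. No paired analysis was possible for the comparisons with the Vehicle group because its libraries carry other numbers.

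With 3 PBS libraries, 1 of which stands apart, values against PBS rest on few points. Levels of Hspa1a and Hspa1b varied more between libraries of a group than those of nearly all other genes. The build of the authors' files differs from that of the annotation used.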

Other observations

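Clock genes, whose transcripts follow the time of day, separated the GGsTop group from both others. Of 15 tested, 7 were higher and 3 lower for GGsTop against Vehicle, 9 higher and 2 lower for GGsTop against PBS, and 4 higher and 2 lower for Vehicle against PBS. These were 46.7% and 20%, 60.0% and 13.3%, and 26.7% and 13.3% of them, against 6.9% and 1.81%, 2.06% and 0.821%, and 15.9% and 22.1% of all genes tested. Without PBS 3 the counts were 8 and 3, 5 and 2, and 1 and 0. Per2 stood at 5.58 ± 0.865 (SD, n = 3), 8.25 ± 1.39 (SD, n = 4) and 28.0 ± 6.32 FPKM (SD, n = 4) in PBS, Vehicle and GGsTop, and was higher with GGsTop than with Vehicle by 1.63 log2 (SE 0.17, adjusted p = 0.0026). Dbp was higher with GGsTop than with Vehicle by 2.07 log2 (SE 0.26, adjusted p = 0.0062) and Nr1d1 by 1.98 log2 (SE 0.33, adjusted p = 0.0163), and all 3 kept their call after GC correction (adjusted p of 0.0071, 0.0318 and 0.0414). Whether the hour of collection differed between groups is not known here, and its part in the heat shock and Cirbp values was not tested.

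Of 12 immediate early genes 6 were lower in Vehicle than in PBS, 50% of them against 22.1% of all genes tested. Among them were Ier3 by −1.30 log2 (SE 0.28, adjusted p = 0.0069) and Ier2 by −0.94 log2 (SE 0.18, adjusted p = 0.0053). After GC correction 2 were lower, where 1869 of all 14004 genes were. Without PBS 3 it was 4, where 1889 of all genes were lower. Of 7 tested regulators of temperature-responsive splicing and RNA binding, 2 were higher in Vehicle than in PBS, 28.6% against 15.9% of all genes tested. These were Tia1 and Srsf7, by 0.55 and 0.46 log2 (adjusted p = 0.0217 and 0.0316). Neither was called after GC correction (adjusted p = 0.440 and 0.719), or without PBS 3, where 2 of the 7 had an unadjusted p under 0.05. With all libraries none was called by limma for GGsTop against PBS or against Vehicle, where 1 and 2 had an unadjusted p under 0.05. Without PBS 3, 2 were lower for GGsTop against Vehicle, where 1447 of all 14004 genes were.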
